A study of Mus musculus with 12 samples.

Results

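The mouse beta-globin locus on chromosome 7 was examined in bone marrow, with the genes Hbb-bt, Hbb-bs, Hbb-bh1 and Hbb-y and the control region upstream of them. Its members were the consensus peaks, the regions of open chromatin that the authors merged over all libraries, whose centre lay between positions 103790000 and 103885000 of chromosome 7 on GRCm38. That window of 95 kb held 22 of the 75281 consensus peaks of the series. The peaks are numbered 1 to 22 by rising position, and all 22 were tested.

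The libraries were made by ATAC-seq, a method in which an enzyme, Tn5, inserts sequencing adapters where nucleosomes leave the DNA bare, so that reads pile up where chromatin is accessible. All 12 came from bone marrow of NZO/HILtJ mice, the inbred New Zealand Obese strain, with 3 females and 3 males aged 3 months and 3 females and 3 males aged 18 months. The labels give no treatment and no engineered allele, and each library carries the number of 1 mouse. Each library was prepared from 50000 cells. The labels' protocol describes sorting of CD8 T cells, whereas the sample labels name bone marrow only. Of 12 T cell genes, 8 had a peak within 3 kb, Cd3d and Lck among them, and Cd3e, Cd8a, Cd8b1 and Bcl11b had none. All 20 genes of an erythroid list had a peak. The libraries are called bone marrow here, as in the sample labels.

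Beta-globin is a chain of haemoglobin, the oxygen carrier of red cells. The genes lie in a row in which Hbb-y and Hbb-bh1 are used in the red cells of the embryo and Hbb-bs and Hbb-bt in those of the fetus and adult, a succession known as globin switching. Upstream of Hbb-y lies the locus control region, a group of enhancer elements bound in erythroid cells by factors such as GATA1, TAL1 and NFE2, which contacts the promoter in use and is needed for high expression. In the adult, red cells are made mostly in the bone marrow.

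All of the genes are read from the minus strand, so higher coordinates are upstream. Hbb-bt spans chr7:103812524-103813923, Hbb-bs chr7:103826523-103827928, Hbb-bh1 chr7:103841638-103843162 and Hbb-y chr7:103851754-103853207 in the RefSeq annotation of GRCm38.p6. The peaks were divided by position into 5 downstream peaks centred more than 3 kb beyond the end of Hbb-bt (peaks 1 to 5), 5 peaks at the adult genes or within 3 kb beyond Hbb-bt (peaks 6 to 10), 1 peak at the embryonic genes (peak 11) and 11 peaks from 1 kb upstream of Hbb-y onwards, called the control region (peaks 12 to 22). Only 4 peaks overlapped an annotated gene: peaks 7 and 8 covered the ends of Hbb-bt, and peaks 9 and 10 those of Hbb-bs. The other 18 were intergenic. The gene table used gives no exons, introns or untranslated regions.

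The promoters are shown because the adult and embryonic genes are compared below and because peaks 8 and 10 cover those of Hbb-bt and Hbb-bs. The nearest peak to the Hbb-y promoter lies just upstream of the bases shown. Shown are the 250 bases before each start, 5′ to 3′ in the direction of the gene, from RefSeq on GRCm38.p6, a reference made from C57BL/6J mice. Capitals mark CACCC, the box bound by KLF1 and related factors, CCAAT, and GATA motifs (GATA with A or T before it and A or G after it), each on either strand.
Hbb-bt, chr7:103813924-103814173, minus strand: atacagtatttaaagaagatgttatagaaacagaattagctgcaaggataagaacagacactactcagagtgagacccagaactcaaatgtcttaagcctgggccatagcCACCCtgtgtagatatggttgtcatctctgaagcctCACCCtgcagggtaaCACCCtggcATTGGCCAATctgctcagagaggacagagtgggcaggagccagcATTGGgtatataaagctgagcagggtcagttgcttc
Hbb-bs, chr7:103827929-103828178, minus strand: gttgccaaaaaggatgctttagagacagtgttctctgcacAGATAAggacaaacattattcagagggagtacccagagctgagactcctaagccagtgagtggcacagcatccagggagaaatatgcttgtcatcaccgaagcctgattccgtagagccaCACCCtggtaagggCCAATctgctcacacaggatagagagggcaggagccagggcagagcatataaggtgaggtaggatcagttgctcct
Hbb-y, chr7:103853208-103853457, minus strand: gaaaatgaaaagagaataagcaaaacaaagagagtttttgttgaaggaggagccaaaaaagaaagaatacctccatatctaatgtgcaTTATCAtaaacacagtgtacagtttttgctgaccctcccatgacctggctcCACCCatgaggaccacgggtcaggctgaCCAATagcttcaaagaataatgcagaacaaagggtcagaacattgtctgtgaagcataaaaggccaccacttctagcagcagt

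Hbb-bs and Hbb-y each held 1 CACCC, 1 CCAAT and 1 GATA match, and Hbb-bt held 3 CACCC, 3 CCAAT and 0 GATA matches. Counting back from the start, the single CACCC of Hbb-bs ran from -90 to -86 and its CCAAT from -76 to -72, and those of Hbb-y from -111 to -107 and from -83 to -79. TGAGTCA, the core of the NFE2 motif, had 0 matches in all 3. Matches of different motifs did not overlap. Among the 32851 promoters of the table, over the same 250 bases and on both strands, 52% held CACCC, 33.8% CCAAT, 26.5% a GATA motif, 4.46% TGAGTCA, and 16.9% both CACCC and CCAAT. Hbb-bt and Hbb-bs were alike over 70.9% of their aligned columns, with a longest shared run of 14 bp, and Hbb-y was alike to them over 54.4% and 53.0%. The genes themselves are close copies, so reads within Hbb-bt and Hbb-bs could be placed on either one. How such reads were counted is not given in the sources used here.

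Total counts in peaks ran from 7668099 to 12756647 per library. Levels are given in CPM, the usual unit for a count scaled by that total, and the detection floor of 3 counts was worth 0.235 to 0.391 CPM, depending on the library. The lowest count at any of the 22 peaks in any library was 11, so all of them were above that floor throughout. Each sequencing run held libraries of 1 age only. Age and run therefore cannot be told apart, and neither can sex and run at 18 months, where each sex had its own run.

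**Figure D1:**
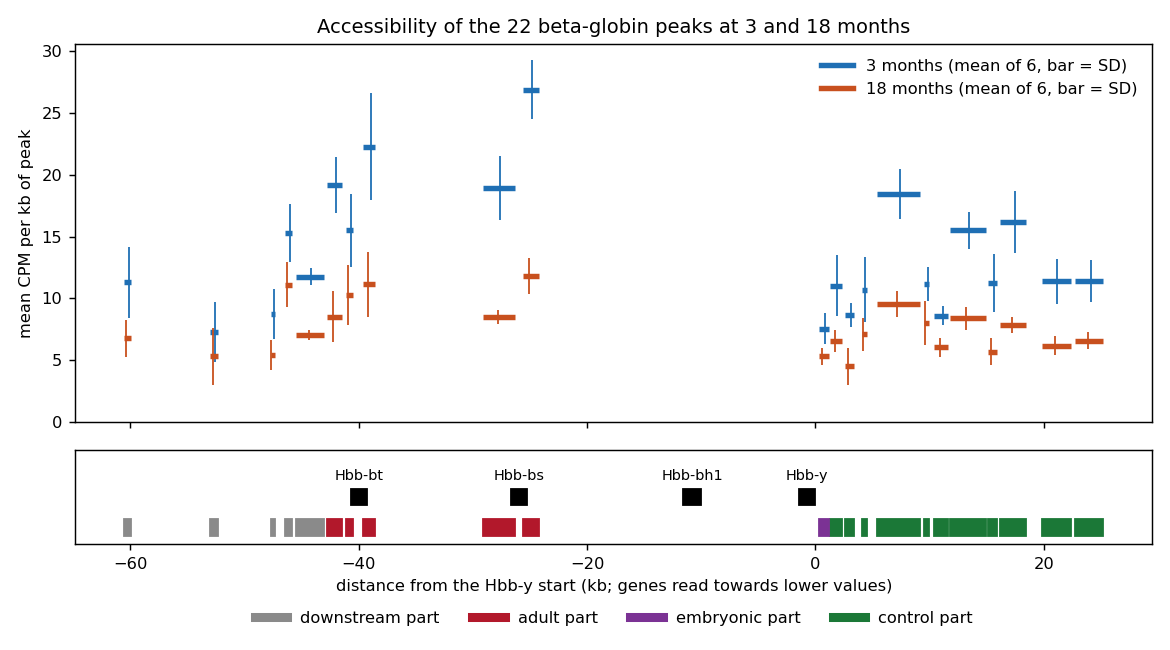
Accessibility along the locus. Each horizontal segment spans 1 of the 22 peaks by distance from the Hbb-y start in kb (x axis), at its mean CPM per kb of peak (y axis) in the 6 libraries of 3 months (blue) or 18 months (orange), with bars for the SD, and the strip below gives the genes and the division of the peaks. The blue segment lies above the orange one at every peak, and no peak lies across Hbb-bh1.

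Accessibility per length at 3 months was highest at the promoters of the adult genes. The Hbb-bs promoter peak stood at 26.9 ± 2.38 CPM per kb and the Hbb-bt promoter peak at 22.3 ± 4.32 (SD, n = 6 libraries here and below). They were followed by peak 6, on the 3′ side of Hbb-bt, at 19.1 ± 2.27, by peak 9, at the 3′ end of Hbb-bs, at 19.0 ± 2.59, and by control peak 15 at 18.4 ± 2.04. Within these 5, the levels of neighbours in the order lay closer together than the sum of their SDs. The Hbb-y peak was the last but 1 of the 22, at 7.56 ± 1.26 CPM per kb, which was within the SD of peak 2, the lowest, at 7.31 ± 2.42.

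At 18 months the Hbb-bs promoter peak stood at 11.8 ± 1.45 CPM per kb, with the Hbb-bt promoter peak at 11.1 ± 2.63 and downstream peak 4 at 11.1 ± 1.79 within its SD. The means over the locus then ran from 4.50 to 11.8. The adult peaks had a median of 19.1 CPM per kb at 3 months and 10.3 at 18 months. The control peaks had medians of 11.2 and 6.58, and the downstream peaks 11.3 and 6.77.

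The embryonic genes were covered little. No consensus peak lay between positions 103828969 and 103853477, a stretch of 24.5 kb that holds Hbb-bh2, Hbb-bh1 and Hbb-y. The peak nearest to the Hbb-bh1 start was 10316 bp away, so Hbb-bh1 has no value here. The Hbb-y peak did not reach the start of the gene, since its near edge lay 271 bp upstream of it. An uncovered stretch shows only that no peak was called there, and the level in it was not measured.

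The locus was less accessible at 18 months than at 3 months at 21 of its 22 peaks. The summed counts of the 22 peaks came to 248 ± 15 CPM at 18 months, from 220 to 262, and to 467 ± 45.2 CPM at 3 months, from 414 to 533. The lowest library of 3 months was thus above the highest of 18 months. By group the sums were 254 ± 7.28 CPM in females and 242.9 ± 20.6 in males of 18 months, and 486 ± 53.2 in females and 448 ± 33.9 in males of 3 months (SD, n = 3).

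Peak by peak, 21 of the 22 were lower at 18 months and 0 were higher (edgeR quasi-likelihood test with age and sex as terms, Benjamini-Hochberg adjusted p under 0.05 over 75164 tested peaks). Over all tested peaks, 11.6% were called lower and 9.43% higher, or 8687 and 7089 peaks. With library totals as the only scaling these became 6629 lower and 11196 higher, while the locus had 20 lower and 0 higher. The log2 fold change of 18 over 3 months ran from -1.26 to -0.52 with a median of -0.85 over the locus, beside 0.02 over all tested peaks. At 13 of the 22 peaks no library of 18 months reached the lowest of 3 months, which held for 3.99% of all tested peaks. Wide and strong peaks fell more often in the series as a whole: 40.3% of all peaks of 2000 bp or wider and 27.7% of the 18791 peaks with the highest mean log2 CPM were called lower. In the locus, 7 of 7 peaks of at least 2000 bp and 14 of 15 narrower ones were called lower, with medians of -0.96 and -0.75.

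In bulk marrow, fewer cells of a type and less accessibility in each cell cannot be told apart. The 20 erythroid genes other than globins, each read at 1 peak, were all lower at 18 months. Over all tested peaks 11.6% were lower, and 40.3% of those of 2000 bp or wider. The summed level of the 20 was 878 to 913 CPM at 18 months and 1257 to 1493 at 3 months. Gata1, Klf1, Nfe2 and Tal1 of this list are also among the globin regulators below, at the same peaks. The part of erythroid cell numbers in the fall of the globin peaks was not tested.

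With TMM scaling the 3 most negative changes of the locus were at the adult genes. With abundance-trend offsets control peak 19 was level with adult peak 9, at -1.09 each. All 5 adult peaks were lower, 4 of them with no overlap between the ages, and their median log2 fold change was -1.24. At the Hbb-bs promoter (peak 10, chr7:103827577-103828968), Hbb-bs being the first of the adult genes downstream of the embryonic ones, the libraries of 18 months read 16.6, 19.9 and 13.9 CPM in females and 15.1, 16.2 and 16.7 in males. Those of 3 months read 37.8, 36.5 and 43.3 CPM in females and 37.8, 35.9 and 33.2 in males. Every young library was far above every old one, and females and males of an age were mixed. Relative to 3 months the level fell by 1.26 on the log2 scale (SE 0.106, edgeR with TMM scaling, adjusted p = 2.14e-12). In CPM, which is scaled by library totals alone, the old mean was 43.9% of the young mean.

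The Hbb-bt promoter (peak 8, chr7:103813629-103814660), that of the other adult gene, was more scattered. It read 13.9, 13.6 and 13.1 CPM in females and 10.0, 11.6 and 6.78 in males of 18 months. The readings at 3 months were 18.2, 28.6 and 27.8 CPM in females and 21.9, 18.6 and 22.8 in males. The ages did not overlap, but at 18 months all 3 males lay below all 3 females. The fall was 1.08 on the log2 scale, written as a log2 fold change of -1.08 (SE 0.127, edgeR adjusted p = 6.84e-09). With the reads of both adult promoters summed as 1 feature, which does not depend on how reads were split between the copies, the change was -1.19 (adjusted p = 1.12e-12).

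Peak 9 (chr7:103824125-103826884) covers the 3′ end of Hbb-bs and the DNA beyond it and had the highest count of the adult peaks. It read 21.6, 24.0 and 21.9 CPM in old females, 24.2, 25.8 and 22.6 in old males, 46.7, 53.0 and 62.9 in young females and 58.7, 45.7 and 47.1 in young males. The old libraries lay within a narrow band, and the young ones were spread more widely and all above it. The change was -1.24 (SE 0.102, edgeR adjusted p = 1.23e-12). Peak 6, on the 3′ side of Hbb-bt, went from 26.1 ± 3.10 to 11.6 ± 2.79 CPM, a change of -1.25 (SE 0.127, adjusted p = 2.07e-10). Peak 7, over the 3′ end of Hbb-bt, changed less, by -0.66 (SE 0.155, adjusted p = 0.00147), and its ages overlapped.

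**Figure D2:**
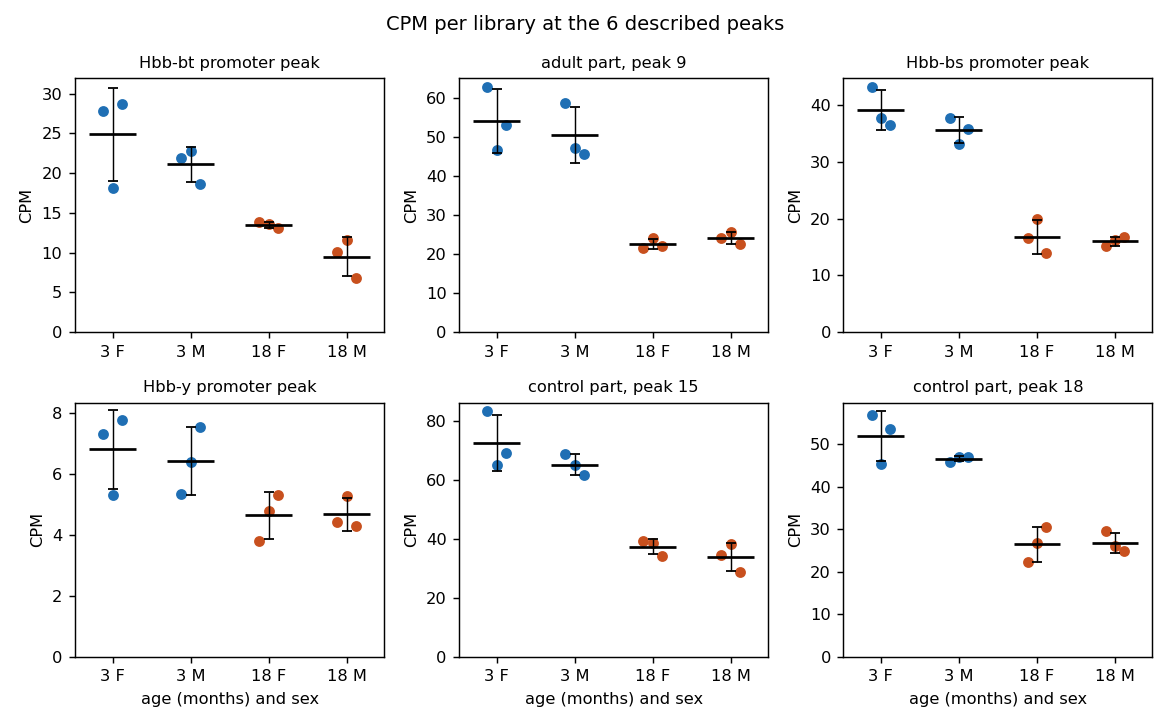
CPM in each library (points) at 6 peaks of the locus, by age in months and sex (x axis), with the mean and SD of each group of 3. At 5 of the 6 peaks every library of 18 months (orange) lies below every library of 3 months (blue), and at the Hbb-y peak the ages overlap.

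At the embryonic genes the only peak, upstream of Hbb-y (peak 11, chr7:103853478-103854353), was low and changed less than the locus median of -0.85. Hbb-y encodes the embryonic epsilon-like chain. The peak read 3.82, 4.78 and 5.32 CPM in old females and 4.44, 5.29 and 4.30 in old males. In the young it read 5.32, 7.79 and 7.31 CPM in females and 5.34, 7.56 and 6.40 in males. The lowest young library was level with the highest old one, so the ages just overlapped. The log2 fold change was -0.59 (SE 0.163, edgeR adjusted p = 0.00735), from 6.62 ± 1.1 to 4.66 ± 0.589 CPM. A change of this size was not particular to the embryonic genes. Downstream peaks 2 and 4 changed by -0.52 and -0.53, and control peaks 16 and 17 by -0.55 and -0.58.

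In the control region all 11 peaks were lower at 18 months, 8 of them without overlap, with a median log2 fold change of -0.95. The peak with the highest count in the locus was peak 15 (chr7:103858633-103862374), which spans 3742 bp from 5.4 to 9.2 kb upstream of the Hbb-y start. It read 39.3, 38.6 and 34.4 CPM in old females and 34.5, 38.5 and 28.95 in old males. In the young it read 65.1, 69.3 and 83.4 CPM in females and 69.0, 61.8 and 65.0 in males. The ages were well apart, and 1 young female stood above the rest. Its change was -1.03 (SE 0.0969, edgeR adjusted p = 3.27e-11).

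Peak 18 (chr7:103864958-103868140), from 11.8 to 14.9 kb upstream of the Hbb-y start, was the next in count. It read 22.3, 26.7 and 30.5 CPM in old females, 29.5, 26.0 and 24.9 in old males, 45.4, 53.6 and 57.0 in young females and 45.9, 47.0 and 47.0 in young males. Again no old library reached a young one, and the young males were close together. The change was -0.96 (SE 0.0986, edgeR adjusted p = 2.11e-10). With TMM scaling the most negative change of the control region was at peak 20, from 16.2 to 18.4 kb upstream. It went from 36.2 ± 5.62 to 17.5 ± 1.46 CPM, a change of -1.12 (SE 0.108, adjusted p = 4.56e-11). That rank depended on scaling. With abundance-trend offsets peaks 13, 19 and 20 changed by -1.06, -1.09 and -1.02, and with width offsets by -1.04, -1.07 and -0.95.

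Within the control region the estimates ran from -1.12 to -0.55, and differences between these peaks were not tested. Peaks 12 and 13, nearest to Hbb-y, changed by -0.83 and -1.0. Peaks 16 and 17, which lie between the strong peaks 15 and 18, changed by -0.55 and -0.58, and peak 14 by -0.65. Peak 19, between peaks 18 and 20, changed by -1.05. The farthest peaks, 21 and 22, changed by -0.95 and -0.87, and beyond peak 22 the window held no further peak. Peaks 14 and 16 were the weakest of the calls in this region (edgeR adjusted p = 0.0147 and 0.0287). Peak 16 no longer passed when library totals alone set the scale (adjusted p = 0.0642) or when any of 3 libraries was left out, with adjusted p = 0.0753 without the old male of mouse 38, 0.0762 without that of mouse 40 and 0.0840 without the young male of run 29. Peak 14 did not pass without the young male of run 31 (adjusted p = 0.0600).

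Downstream of Hbb-bt, 4 of 5 peaks were lower, with a median of -0.75. Peak 5 (chr7:103807721-103810180), the strongest of them, went from 28.9 ± 1.66 to 17.3 ± 0.899 CPM, a change of -0.82 (SE 0.101, edgeR adjusted p = 2.13e-08), and was the only downstream peak whose ages did not overlap. Peaks 1, 3 and 4 changed by -0.82, -0.75 and -0.53. Peak 2, the least accessible of the locus per length at 3 months, was the one not called, at 3.64 ± 1.56 CPM in the old and 5.02 ± 1.66 in the young (log2 fold change -0.52, SE 0.224, adjusted p = 0.0935). It passed when any of 3 libraries was left out, with adjusted p = 0.0371 without the old female of mouse 35, 0.0338 without the old male of mouse 38 and 0.00882 without the young male of run 30.

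**Figure D3:**
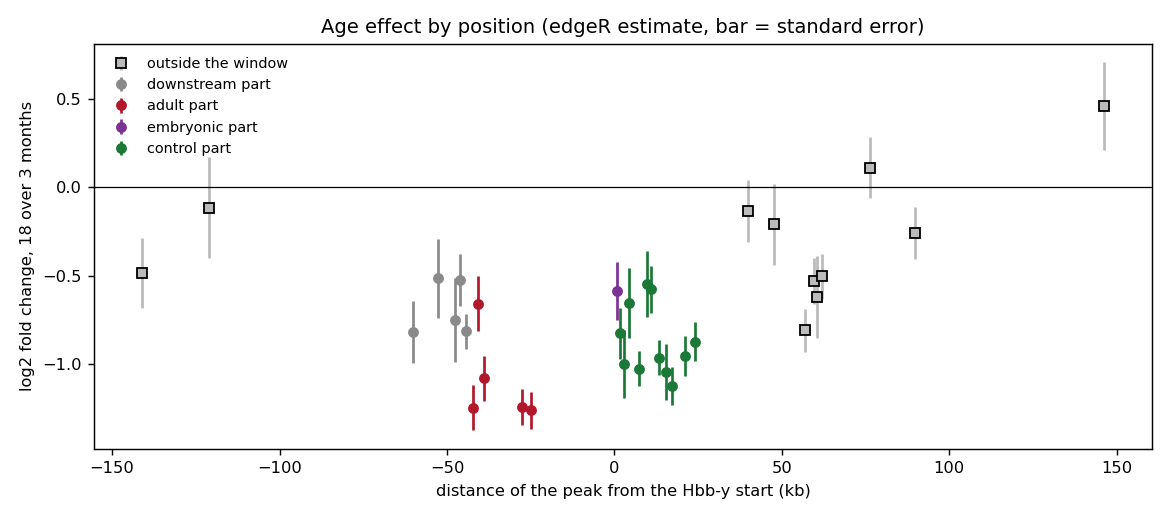
Log2 fold change of 18 over 3 months (y axis, edgeR estimate with its SE) against the distance of each peak from the Hbb-y start in kb (x axis), for the locus peaks by part (circles) and peaks outside the window (squares). The circles run from -1.26 to -0.52. Among the squares, 4 peaks 56.2 to 62.6 kb upstream lie from -0.81 to -0.50, and another at -141 kb lies at -0.48. The other squares shown run from -0.26 to 0.46.

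Peaks with more counts tended to have the more negative changes. Over the 22 peaks, Pearson's r between the log2 fold change and the log2 mean CPM was -0.67 (Spearman's rho -0.64), with CPM per kb it was -0.58 (rho -0.54) and with width -0.57 (rho -0.59). These are descriptions across peaks that come from the same libraries and are not independent.

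The strongest peaks of the adult, embryonic and control divisions (peaks 9, 11 and 15) were compared by their ratio within each library. Total depth does not enter this measure, which asks whether these peaks fell by different amounts. The embryonic division rests on 1 peak and on the boundary set 1 kb upstream of Hbb-y. Peaks 12 and 13, just beyond that boundary, changed by -0.83 and -1.0. The ratios were not run with them counted as embryonic. The log2 ratio of the adult to the embryonic peak was 2.98 ± 0.304 at 3 months and 2.32 ± 0.160 at 18 months, a difference of -0.66, and the ages did not overlap (2-sided exact permutation test over 924 arrangements, p = 0.00216, which is the smallest they can give, and 0.00649 after Benjamini-Hochberg adjustment over the 3 ratios). The ratio of the embryonic to the control peak was higher at 18 months, at -2.93 ± 0.241 compared with -3.38 ± 0.259, a difference of 0.45 (exact permutation p = 0.0152, adjusted p = 0.0227). The ratio of the adult to the control peak was lower at 18 months, at -0.61 ± 0.170 compared with -0.40 ± 0.0887, a difference of -0.21 (exact permutation p = 0.0260, adjusted p = 0.0260). The adult peak thus fell most and the Hbb-y peak least, relative to one another. For the ratios to the control peak the old and young ranges overlapped. The ratios keep any dependence of the age change on peak strength or width. With abundance-trend or width offsets in the edgeR fit, the change at the Hbb-y peak less that at the control peak was 0.19 or 0.20 in place of 0.44, that at the adult peak less that at the Hbb-y peak was -0.45 with either in place of -0.66, and that at the adult peak less that at the control peak was -0.26 or -0.25 in place of -0.22. These differences under offsets were not tested.

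By sex, with 3 libraries a group and a smallest possible exact p of 0.1, the adult to embryonic ratio was lower at 18 months in both sexes without overlap, by -0.71 in females and -0.61 in males. The adult to control ratio differed by -0.31 in females, without overlap, and by -0.10 in males, with overlap. The embryonic to control ratio differed by 0.40 in females, with overlap, and by 0.50 in males, without overlap. Without the young male of run 29 the adult to control ratio no longer passed (difference -0.17, exact permutation test, adjusted p = 0.0519). As shares of all counts in the locus, the adult peaks made up 31.6% ± 1.16 at 3 months and 27.7% ± 1.95 at 18 months. The control peaks made up 55.5% ± 0.898 and 56.8% ± 1.38, the downstream peaks 11.4% ± 0.753 and 13.6% ± 0.808, and the Hbb-y peak 1.42% ± 0.220 and 1.88% ± 0.204.

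**Figure D4:**
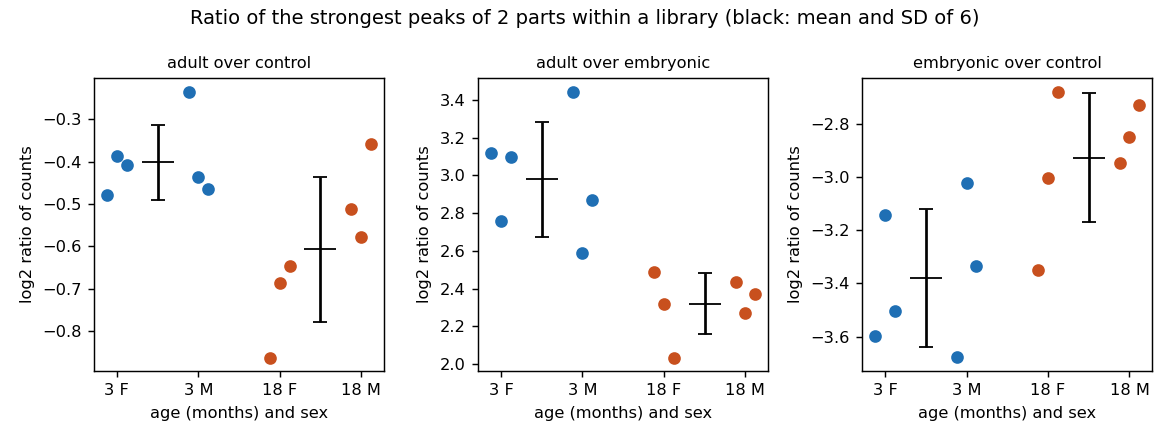
Log2 ratio of counts at the strongest peaks of 2 divisions of the locus (y axis) in each library (points), by age in months and sex (x axis), with the mean and SD of the 6 libraries of an age in black. The adult to embryonic ratio of every library of 18 months lies below that of every library of 3 months, while the other ratios overlap between the ages.

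The fall with age was seen in each sex. In females 14 of the 22 peaks were lower (edgeR adjusted p under 0.05, 6.20% of all tested peaks) and in males 16 (8.18%), 14 of them in both, with medians of -0.87 and -0.85. The share of all tested peaks lower in both sexes was not counted and cannot exceed 6.20%. The shares over all peaks rest on single libraries and on scaling: the 4661 lower calls in females became 2600 without the young female of run 28, and the 6145 in males became 3397 without the young male of run 29 and 3510 with abundance-trend offsets. All 22 estimates were below 0 in both sexes. The libraries of a sex did not overlap between the ages at 20 peaks in females and 14 in males, beside 13.1% and 10.2% of all tested peaks. The difference in the age effect between males and females passed at 0 of the 22 peaks (edgeR interaction test, smallest adjusted p = 0.664, 0 at an unadjusted p under 0.05, against 10.0% of all tested peaks). DESeq2 gave 0 too, with 12 of the 22 left without an adjusted p. The estimated differences, male minus female, ran from -0.35 to 0.23 with SEs of 0.185 to 0.481, so differences of that order could not be resolved. Over all tested peaks 0.00532% passed, or 4 peaks. Without the young male of run 31, 1621 peaks of the series passed, and still 0 of the locus.

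Between the sexes themselves 0 of the 22 peaks passed (edgeR with age as a term, smallest adjusted p = 0.396, 0.162% of all tested peaks), and 2 had an unadjusted p under 0.05, against 7.57% of all tested peaks. DESeq2 called 0. Both of these peaks were lower in males: the Hbb-bt promoter peak by -0.38 (SE 0.127, adjusted p = 0.396) and peak 1 by -0.42 (SE 0.178, adjusted p = 0.595). Without the young male of run 30, 1 peak passed for sex, that of the Hbb-bt promoter (log2 difference -0.44, edgeR adjusted p = 0.0454), and calls over the whole series rose from 122 to 567.

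The surrounding DNA holds olfactory receptor genes. Of the 31 peaks tested within 500 kb on either side of the window, 4 (12.9%) were lower at 18 months, near the 11.6% of all tested peaks, and 1 (3.23%) was higher, where 9.43% of all were. Their median log2 fold change was -0.03, and -0.23 within 200 kb. All 4 lower ones stood together, 56.2 to 62.6 kb upstream of the Hbb-y start, a block singled out after its values were seen. The first of them (chr7:103909397-103910653) went from 17.6 ± 3.04 to 10.6 ± 0.693 CPM without overlap between the ages (log2 fold change -0.81, SE 0.122, edgeR adjusted p = 1.63e-06). The others changed by -0.53, -0.62 and -0.50 (adjusted p = 0.00257, 0.0467 and 0.00249). The 2 peaks between the window and this block were not called, at -0.13 and -0.21 (adjusted p = 0.632 and 0.557).

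The genes of the other globin cluster and of factors that act on globin genes were read at 1 peak each, the one with the highest mean count in the gene or within 3 kb of it. Of 25 genes listed, Ahsp was not in the gene table used, so it has no value here. The other 24 had a peak, and 19 were lower, 0 were higher and 5 were not called, with a median log2 fold change of -0.58. Without the globin genes, 14 of 19 were lower. The share lower was 11.6% among all tested peaks and 40.3% among those of 2000 bp or wider. It was 27.7% among the 18791 peaks with the highest mean log2 CPM. The shares of wide and strong peaks are the closer comparison, since each gene was read at its strongest peak. All 5 alpha-globin cluster genes were lower. The peak of Hba-a1, an adult alpha chain, went from 78.8 ± 10.6 to 38 ± 3.66 CPM, a change of -1.13 (SE 0.0989, edgeR adjusted p = 7.43e-12), and is also the peak of Hbq1b. That of Hba-a2, the other adult alpha chain, changed by -0.94, that of Hbq1a by -0.75, and that of Hba-x, the embryonic alpha-like chain, by -0.62.

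Among factors that activate globin genes, the peaks of Gata1, Klf1 and Nfe2 changed by -0.96, -0.77 and -0.43. Tal1, Lmo2 and Ldb1, whose products bridge promoter and control region as a complex with GATA1, changed by -0.63, -0.65 and -0.27, and Zfpm1, encoding the GATA1 cofactor FOG1, by -0.67. Mafk and Mafg, which encode small partners of NFE2, were at -0.18 and -0.20 and were not called. Among genes whose products hold embryonic globin silent, Bcl11a changed by -0.50 and Sox6 by -0.89, while Zbtb7a was at -0.23 and not called (adjusted p = 0.0637). Eif2ak1, the kinase that matches globin synthesis to haem, changed by -0.70 and Bach1, a haem-sensing repressor, by -0.48.

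Genes that mark other cells of the marrow were read in the same way. Over all tested peaks 9.43% were higher and 11.6% lower. Of 14 neutrophil and other myeloid genes with a peak, 10 were higher at 18 months and 0 lower. The 14 had a median log2 fold change of 0.39 and summed levels of 428 to 515 CPM at 18 months and 292 to 439 at 3 months. Within males only Ngp, Ltf and S100a8 of the 10 passed, and within females all of the 10 but Camp and Itgam. Of 12 B cell genes, 1 was lower (Pax5) and 11 were not called, with sums of 158 to 223 CPM and 176 to 204. Of 8 T cell genes with a peak, 1 was lower (Lck), 2 were higher (Cd3d and Cd28) and 5 were not called, with sums of 133 to 152 CPM and 121 to 145. The other 4 T cell genes, Cd3e, Cd8a, Cd8b1 and Bcl11b, had no peak. The part of the cell make-up in the globin values was not tested.

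**Figure D5:**
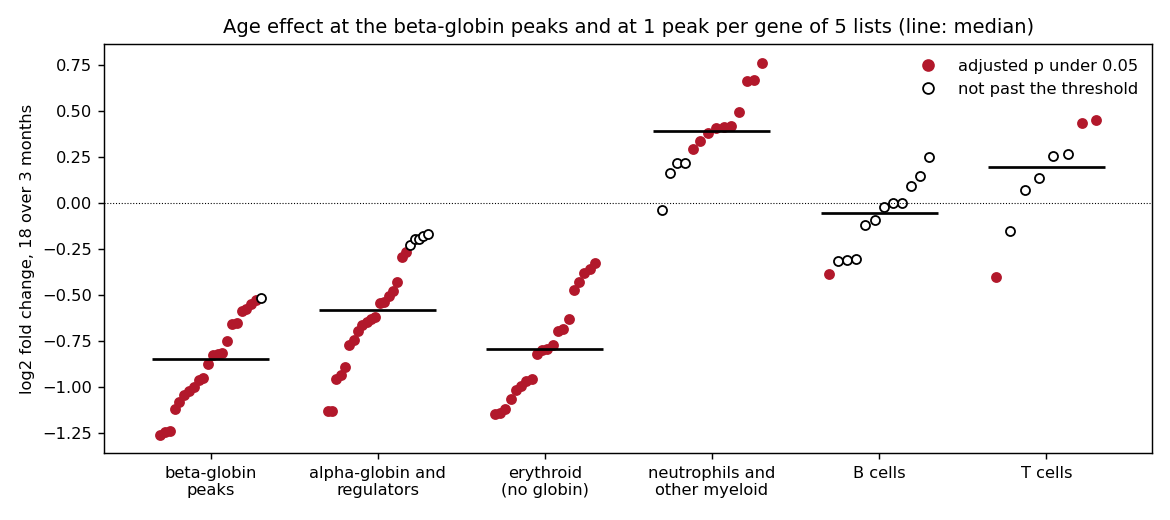
Log2 fold change of 18 over 3 months (y axis) for the 22 beta-globin peaks and for 1 peak per gene of 5 lists (x axis), filled where the edgeR adjusted p was under 0.05, with a line at each median. The medians are -0.85 for the beta-globin peaks, -0.58 for alpha-globin and regulators, -0.80 for erythroid genes, 0.39 for myeloid genes, -0.06 for B cell genes and 0.20 for T cell genes. Gata1, Klf1, Nfe2 and Tal1 are in both the regulator and the erythroid list.

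The peaks elsewhere whose level followed the locus most closely were ranked by Pearson's r of log2 CPM with the summed locus over the 12 libraries, among peaks within 3 kb of a protein-coding gene. After the mean of each age and sex group was taken out, the highest were near Steap3 and Zfp217 (r = 0.96 each), Art4 (0.94), Kcnn4 (0.93) and Chac2 (0.92), and the median over all peaks was 0.01. The locus peaks themselves had r from -0.03 to 0.88 on that measure, with a median of 0.47, though each is part of the sum. With the group means kept in, the highest were near Kcnn4 and Sphk1 (r = 0.99 each), Pdzk1ip1 (0.99), Slc4a1 (0.99) and Mfhas1 (0.99), a ranking that the age groups, which lie apart, largely fix. All of these values share the depth and cell make-up of the same 12 libraries.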

How the data were processed

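Read counts at 75281 consensus peaks in 12 ATAC-seq libraries were used as the authors deposited them, whole numbers with no normalization. The submitters' processing notes name Trimmomatic, BWA, MACS2, DiffBind, edgeR and the build mm10, with no version or role. How duplicates and reads of repeated DNA were treated, and whether read ends were shifted to the cut site, is not given in the sources used here. The smallest deposited count value was 1. Per the labels' protocols, libraries had 10 PCR cycles and 75 bp paired reads. No molecular identifiers are named, so the detection floor of 3 counts covers counting error only.

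Groups, mouse numbers and runs came from the sample labels. Replicates of a group differed beyond sampling noise (chi-square per degree of freedom 2.17 to 6.10), and 0 pairs held identical values. Peaks had to exceed 1 CPM in 2 or more libraries, which left 75164 for edgeR 4.0.16 in R 4.3.3 (TMM factors, quasi-likelihood F test). Age and sex effects came from a model with both terms, and effects within a sex and the interaction from a model with 4 group means. Adjusted p-values were taken over all tested peaks with a threshold of 0.05. SEs were derived from the F statistic. The script was tested on simulated data. DESeq2 1.42.0 and limma 3.58.1 (voom) served as alternatives, beside other scalings, no filter and leaving out each library. Ratios used log2 of count plus 0.5. Promoters were aligned with Biopython 1.88.

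The members, the gene lists and the tests were chosen with earlier results of these data known. Peaks described library by library were the promoter peak of each member gene within 1 kb of its start and the 2 peaks with the highest mean CPM at the adult genes, the embryonic genes and the control region. Other named genes came from the lists or from a ranking by correlation. Peaks named outside this rule were the remaining locus peaks and the 4 peaks upstream of the window.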

Additional observations from a re-analysis of the deposited data

Results flagged for a closer look

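For each of the 22 peaks and for the summed locus, the 6 libraries of each age, 46 groups in all, were examined for a library far from the others by Dixon's 95% critical value, and 3 stood out, where chance gives about 1 in 20, or 2.3. At control peak 15, 1 young female (run 28) had 83.4 CPM, with the next library of 3 months at 69.3 and the lowest at 61.8. At control peak 21, 1 young male (run 30) had 20.2 CPM, with the next at 28.9 and the highest at 33.2. For the summed locus, 1 old male (mouse 40) had 220 CPM, with the next library of 18 months at 248 and the highest at 262. Peaks 15 and 21 stayed lower at 18 months, past the threshold, with each library left out. With the old male of mouse 40 left out, 20 of the 22 peaks were lower.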

How the results depend on the processing

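Over 19 alternatives (library totals, DESeq2 size factors, abundance-trend and width offsets, no filter, DESeq2, limma voom and each library left out), 20 to 22 of the 22 peaks were lower at 18 months and 0 higher. All 22 estimates stayed below 0, and 19 peaks passed under every alternative; peaks 2, 14 and 16 did not. With library totals the median of all peaks moved from 0.02 to 0.10 and that of the locus was -0.77; with width offsets the locus median was -0.79. Within females 11 to 16 and within males 13 to 17 peaks were lower, limma voom not being run within a sex. With only the libraries of that sex fitted, 17 were lower in females and 15 in males. With the control region begun 3 kb above Hbb-y, 3 peaks counted as embryonic and all were lower, at -0.59, -0.83 and -1.0. The ratios between divisions were not run with that boundary. The number of surrounding peaks that were higher was 2 with library totals, 2 with abundance-trend offsets, 0 with width offsets, 0 within 200 kb of the window and 0 to 2 with a library left out. Sex passed at 0 to 1 peaks with a library left out. The adult to control ratio differed by -0.26 to -0.15 with a library left out, and its adjusted p was 0.0519 without the young male of run 29. The median of the surrounding peaks, -0.03, was above 0 under 10 of 20 alternatives (up to 0.05, with library totals) and -0.23 within 200 kb. No age change of a locus peak and no ratio difference reversed its direction under the alternatives run. No paired analysis was possible because no mouse number is shared between groups. Runs 29 and 31 each held 1 young female and 1 young male, and with run as a factor in these 4 libraries sex passed at 0 locus peaks (edgeR, 0 at an unadjusted p under 0.05) and at 45 peaks of the series. The lowest count at a locus peak was 11. The causes of these shifts were not tested.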
